A study of Mus musculus with 16 samples.

Results

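Growth hormone (Gh), prolactin (Prl), the alpha subunit shared by the glycoprotein hormones (Cga) and transthyretin (Ttr) were examined as markers of tissue that borders the mouse hypothalamus. These 4 genes, chosen by name, are listed for both diets, among 8019 gene names listed for at least 1 diet. RNA had been sequenced from the hypothalamus of PNOC-L10a-EGFP mice (strain C57BL/6N, 10 to 12 weeks old) that received a high-fat diet (HFD) or a control diet (CD) for 3 days. In these mice the ribosomal protein L10a carries a green fluorescent protein in cells marked through Pnoc, the gene of prepronociceptin, and an antibody against the fluorescent protein pulls down the tagged ribosomes with the RNA they hold. All groups carried the same transgene and differed in diet and RNA fraction. They were HFD immunoprecipitate (IP), HFD input, CD IP and CD input, with 4 libraries each, the input being hypothalamic RNA without enrichment. Neither pooling of animals nor the way in which the Pnoc gene directs the transgene is described in the labels.

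The anterior pituitary lies directly below the hypothalamus, and its endocrine cells each devote much of their mRNA to 1 or a few secreted hormones. Somatotrophs make growth hormone and lactotrophs make prolactin, and both lineages depend on the transcription factor Pit-1 (Pou1f1). Gonadotrophs and thyrotrophs make the alpha subunit, which pairs with a hormone-specific beta subunit to give luteinising, follicle-stimulating or thyroid-stimulating hormone, and the pars tuberalis, a sheet of pituitary tissue along the median eminence, makes it as well. Transthyretin carries thyroxine and retinol-binding protein, and in the brain its main source is the epithelium of the choroid plexus, which lies within the ventricles.

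The processed data give 1 FPKM value per group and no value per library. FPKM divides fragment counts by transcript length and library size, so levels of different genes can be compared per length. Read depth and the spread between the 4 libraries of a group are unknown, and it cannot be told whether a group value rests on all of its libraries or on 1 of them. All FPKM, log2 folds and q-values for a single diet are those of the authors' deposited tables, in which every entry is marked significant. Pnoc, the gene that marks the targeted cells, stood at 19.8 FPKM in HFD IP against 4.35 FPKM in HFD input, and at 19.9 FPKM in CD IP against 4.62 FPKM in CD input.

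Where the genes lie bears on what their values may contain, and positions are given for GRCm38 in the GENCODE M21 annotation. Gh (ENSMUSG00000020713) has 5 exons on the minus strand of chromosome 11, from 106300271 to 106301865, and its deposited span is the same as the annotated gene. Prl (ENSMUSG00000021342) lies on the plus strand of chromosome 13 from 27057570 to 27065205, but its deposited span starts at 26968491, the first base of the antisense gene Gm47888, which shares 0 exonic bases with Prl. Cga (ENSMUSG00000028298) lies on the plus strand of chromosome 4 from 34893779 to 34907370, and its deposited span runs on to 34911481, the end of the non-coding gene Platr9 on the opposite strand. Platr9 shares 305 exonic bases with Cga, and the sources used here do not state that reads were assigned by strand, so a part of the Cga value may come from Platr9. Neither Platr9 nor Gm47888 is listed in either table.

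The 250 bases before the annotated start are shown for 2 of the 4 genes, Prl (chr13:27057320-27057569, plus strand) and Cga (chr4:34893529-34893778, plus strand). No such window was available for Gh, and that of Ttr is not shown. The sequences are RefSeq's for GRCm38.p6 and run 5′ to 3′. Capitals mark matches to ATGNATA (the core of Pit-1 sites), TGANGTCA (a cyclic AMP response element with 1 open base) and TATAAA (the TATA box), searched on both strands.
Prl: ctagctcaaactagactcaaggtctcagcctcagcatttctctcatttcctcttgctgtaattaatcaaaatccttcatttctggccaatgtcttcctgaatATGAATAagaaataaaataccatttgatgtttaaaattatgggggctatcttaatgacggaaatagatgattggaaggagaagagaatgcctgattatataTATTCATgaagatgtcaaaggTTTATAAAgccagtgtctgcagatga
Cga: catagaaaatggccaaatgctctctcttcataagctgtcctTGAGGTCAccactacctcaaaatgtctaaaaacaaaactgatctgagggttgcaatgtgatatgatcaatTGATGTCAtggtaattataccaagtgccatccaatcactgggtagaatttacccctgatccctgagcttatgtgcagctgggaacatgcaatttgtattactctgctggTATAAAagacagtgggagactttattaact
The Prl window held 2 matches to the Pit-1 core, beginning 148 and 47 bases before the start, and 2 overlapping TATA matches on opposite strands that share most of their bases. The Cga window held 2 matches to the response element, beginning 209 and 139 bases before the start, and 1 TATA match. Of 32851 promoter windows of this length, 7.92% held the Pit-1 core, 7.49% the response element and 12.4% the TATA match. The matches describe the letters only. Binding was not measured, and a link of the matches to diet was not tested.

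The first question was how the level of each transcript in IP compared with its level in input. Shares of input kept are IP FPKM as a percent of input FPKM. They compare relative levels and do not give the fraction of a transcript's molecules that tagged ribosomes held. All 4 genes were depleted in IP relative to input in each diet at a deposited q of 0.05. Among all listed tests, 44.8% were depleted in HFD mice and 46.2% in CD mice, so a direction alone does not set these genes apart. The depth of the depletion split them into a group of 3 (Gh, Prl and Ttr), which kept between 7.83% and 14.1% of their input level, and Cga, which kept several times more.

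Gh, the hormone of somatotrophs, stood at 20.6 FPKM in HFD IP against 204 FPKM in HFD input, and at 96.4 FPKM in CD IP against 781 FPKM in CD input. Its IP level was thus 10.1% of input in HFD mice (log2 fold -3.31, q = 0.000379) and 12.4% in CD mice (log2 fold -3.02, q = 0.000379). This q is the smallest the authors' tables hold and is shared by 47.2% of HFD tests and 49.6% of CD tests. In the precipitate Gh stood at 1.04 times the level of Pnoc in HFD mice and 4.83 times that level in CD mice. By FPKM it ranked 2351 in HFD IP against 197 in HFD input, of 6540 listed tests, and 659 in CD IP against 25 in CD input, of 6686 listed tests.

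Prl, the hormone of lactotrophs, stood at 22.7 FPKM in HFD IP against 243 FPKM in HFD input, and at 14.1 FPKM in CD IP against 146 FPKM in CD input. The share that remained was almost the same in both diets, with 9.33% of input in HFD mice (log2 fold -3.42) and 9.69% in CD mice (log2 fold -3.37), each with q = 0.000379 in the authors' deposited tables. Only 6.01% of depleted tests in HFD mice and 6.28% in CD mice had a lower log2 fold than Prl.

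Ttr (ENSMUSG00000061808) has 4 exons on the plus strand of chromosome 18, from 20665280 to 20674321, again with a deposited span equal to the annotated gene. It stood at 1.25 FPKM in HFD IP against 8.89 FPKM in HFD input, and at 4.28 FPKM in CD IP against 54.7 FPKM in CD input. It kept 14.1% of input in HFD mice (log2 fold -2.83) and 7.83% in CD mice (log2 fold -3.67), with q = 0.000379 in both. In CD mice that was the deepest log2 fold of the 4 genes, with 3.50% of depleted tests below it. Its IP level was under that of Pnoc in each diet.

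Cga, the alpha subunit, stood at 9.34 FPKM in HFD IP against 22.1 FPKM in HFD input, and at 53.7 FPKM in CD IP against 72.6 FPKM in CD input. It kept 42.2% of input in HFD mice (log2 fold -1.25, q = 0.000379) and 73.9% in CD mice (log2 fold -0.44, q = 0.0378). The CD value was among the shallowest listed depletions, with 94.2% of depleted tests below it. In CD IP the alpha subunit was the second most abundant of the 4 transcripts, above Prl, whereas in both inputs it was the third.

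**Figure D1:**
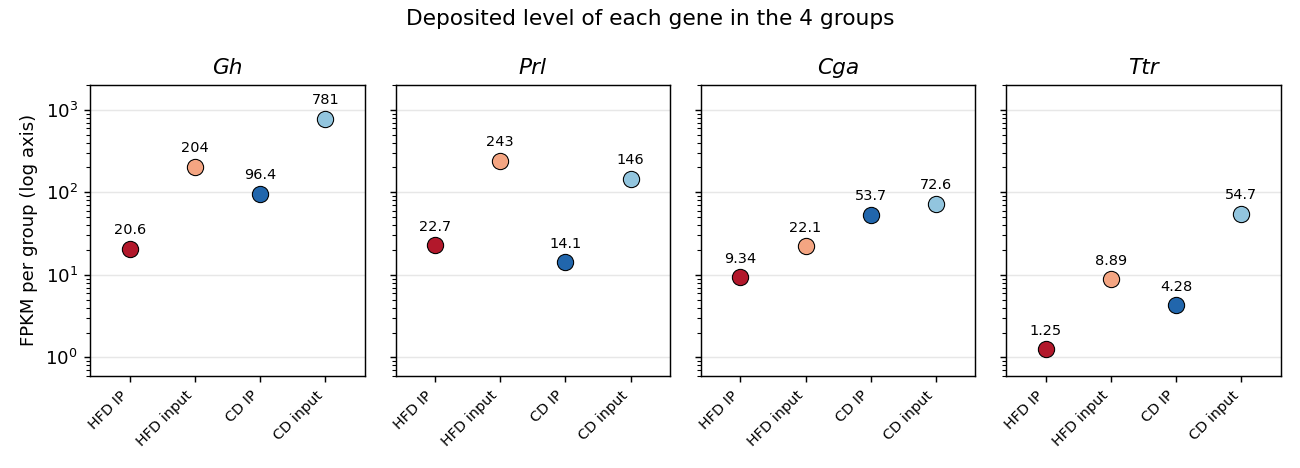
Each panel plots 1 gene, with its deposited FPKM on a log axis in HFD IP, HFD input, CD IP and CD input, 1 point per group and no error bars because no value per library was given. IP lies below input in all 8 pairs, by the smallest distance for Cga in CD mice (53.7 against 72.6 FPKM).

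A standard error for each deposited log2 fold was recovered by dividing it by the authors' test statistic, and gave 95% intervals for the share of input that remained in IP. For Cga the statistics were -2.65 in HFD mice and -1.33 in CD mice. The p-values of the authors' own test (5e-05 and 0.0098) were smaller than a normal reading of these statistics gives. The intervals, and the z-tests below that use the same errors, are therefore nominal. For Gh these ran from 5.87% to 17.4% in HFD mice and from 7.97% to 19.1% in CD mice. For Prl they ran from 5.28% to 16.5% in HFD mice and from 6.16% to 15.2% in CD mice. The intervals of Gh and Prl thus overlapped widely, between the genes and between the diets.

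For Ttr the intervals ran from 7.05% to 28.1% in HFD mice and from 4.39% to 14.0% in CD mice. For Cga they ran from 22.3% to 79.8% in HFD mice and from 47.4% to 115% in CD mice. The Cga interval did not overlap those of Gh and Prl in either diet, and it overlapped that of Ttr in HFD mice only. In CD mice it reached past 100%, although the authors' q for Cga passed 0.05. Differences between genes were not tested, since the genes were measured in the same libraries and their covariance is unknown.

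**Figure D2:**
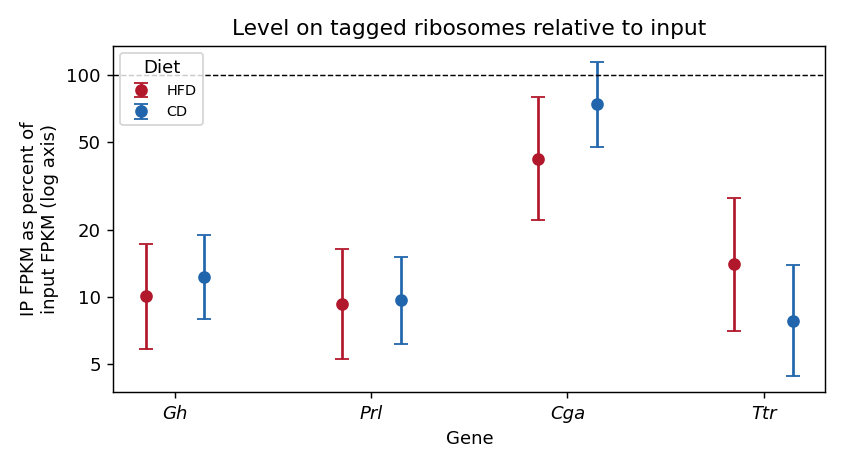
The IP level as a percent of the input level is plotted on a log axis for each gene, with HFD at the left and CD at the right of each pair, and bars give the 95% interval recovered from the deposited statistic. Gh, Prl and Ttr lie between 7.83% and 14.1%, and Cga lies at 42.2% in HFD mice and 73.9% in CD mice.

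An IP level of 25% of input or less was reached by 3 of the 4 genes in each diet, against 14.4% of all listed HFD tests and 14.5% of all listed CD tests. Lists of glial markers served to place these values, with Aldoc, Mbp and Ctss as the genes of highest input. All 10 astrocyte genes and all 10 oligodendrocyte genes were depleted in each diet. Of 10 microglial genes, 8 were listed in each diet, all of them depleted. Astrocyte markers had a median of 12.5% of input in HFD mice and 12.1% in CD mice, oligodendrocyte markers 8.46% and 8.60%, and microglial markers 8.99% and 9.44%, in the same order of diets. Gh, Prl and Ttr were therefore at shares like those of glial transcripts. Ependymal markers, from cells that line the ventricles beside the choroid plexus, had a median of 12.9% in HFD mice and 11.2% in CD mice. GABAergic genes, by contrast, were enriched in 9 of 9 cases in each diet. Their median was 202% in HFD mice and 215% in CD mice. Pnoc, the gene that marks the targeted cells, is 1 of these 9. It had the highest log2 fold of the list, 2.18 in HFD mice and 2.11 in CD mice. Of 12 pan-neuronal genes, all 10 listed in HFD mice were enriched. In CD mice 11 were listed, with 10 enriched and Map2 depleted (log2 fold -0.55). Of 5 blood genes, 3 were listed in HFD mice and 5 in CD mice, and all of those listed were depleted. Of 6 tanycyte genes, 3 were listed in each diet, all of them depleted. Of 8 endothelial genes, 5 were listed in each diet, 4 of them depleted. Among all listed tests, 44.8% were depleted in HFD mice and 46.2% in CD mice. The endothelial gene Itm2a was enriched, at a log2 fold of 0.58 in HFD mice and 0.73 in CD mice.

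The genes nearest to each member were sought by the distance between their log2 folds in both diets, among 3618 single-gene tests with at least 5 FPKM in each input. Nearest to Gh were Tmem98, Mfge8, Avp, Car14 and Galnt6, at distances from 0.062 to 0.11. Avp, the precursor of vasopressin, had log2 folds of -3.26 in HFD mice and -3.07 in CD mice. Nearest to Prl were Kcnj10, Ccdc190, Hepacam, Lcat and Fabp7, at distances from 0.042 to 0.089, and Kcnj10, a potassium channel of glia, had log2 folds of -3.41 in each diet.

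Cga and Ttr had no such close neighbours. The 5 genes nearest to Cga (Zc3h7a, Ddah2, Arpp21, Rdh13 and Gm6483) lay at distances from 0.27 to 0.36, and those nearest to Ttr (Olig2, Aif1, C1qc, Creb5 and Apod) at distances from 0.32 to 0.43. Olig2 marks the oligodendrocyte lineage, and Aif1 and C1qc mark microglia. This likeness is a match of folds over 2 diets only.

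The second question was whether the IP level relative to input differed between the diets. The log2 fold in HFD mice minus that in CD mice, centred on the median of 5149 tests, was -0.29 for Gh (95% interval -1.30 to 0.71), -0.06 for Prl (-1.11 to 0.99), -0.82 for Cga (-1.94 to 0.31) and 0.84 for Ttr (-0.46 to 2.14). All 4 intervals held 0. A two-sided z-test was run, and after Benjamini-Hochberg adjustment none of the 5149 tests passed 0.05 (0.0%), and 1 had an unadjusted p under 0.05. The z-test and its intervals are normal approximations on groups of 4 libraries, so no p-value is given for single genes. Chance alone would put 5% of tests (257) under 0.05. The recovered standard errors (median 0.43) were thus wide beside the differences themselves (SD 0.20), and the test had little means to find a difference. The absence of calls says nothing of whether the shares were equal, and the intervals admit differences of more than 1 log2 unit for Gh, Prl, Cga and Ttr.

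The levels of the 4 genes were compared between the diets next. Ttr in the input was 8.89 FPKM in HFD mice against 54.7 FPKM in CD mice, 6.15 times lower. Gh in the input was 204 FPKM in HFD mice against 781 FPKM in CD mice, 3.83 times lower, and Cga was 22.1 FPKM in HFD mice against 72.6 FPKM in CD mice, 3.28 times lower. Prl went the other way, with 243 FPKM in HFD mice against 146 FPKM in CD mice, 1.66 times higher. Neither a value per library nor an error per group was given, and it is not stated whether both diets were scaled together.

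Most other transcripts listed for both diets had nearly equal input levels in HFD and CD mice. A gene listed for 1 diet only could not be ranked. The 3791 ranked tests were listed for both diets and had a mean input of at least 5 FPKM. Their log2 input level in HFD over CD mice had a median of -0.012, and 99.6% of tests lay within 0.5 of 0. Against that background the values were -2.62 for Ttr, -1.94 for Gh, -1.71 for Cga and 0.73 for Prl. Ttr, Gh and Cga had the 3 lowest values of all 3791 tests, and Prl had the second highest, after Rdh13. An HFD input at least 2 times lower than the CD input was found for 4 tests (0.106%), namely these 3 genes and Slc6a3, and an HFD input at least 1.5 times the CD input for 5 tests (0.132%), of which Prl was 1. A different amount of bordering tissue, fewer cells of a type and less RNA per cell cannot be told apart in bulk samples. None of these was tested.

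The precipitates showed the same directions as the inputs. Titles number the IP and input libraries of each diet alike, so both fractions may come from the same tissue. They are not shown to be independent. Cga was 9.34 FPKM in HFD IP against 53.7 FPKM in CD IP (5.74 times lower), Gh 20.6 FPKM in HFD IP against 96.4 FPKM in CD IP (4.68 times lower), and Ttr 1.25 FPKM in HFD IP against 4.28 FPKM in CD IP (3.42 times lower). These were the 3 lowest IP values of HFD over CD among the 3791 tests, of which 6 (0.158%) were at least 2 times lower in HFD IP. Prl was 22.7 FPKM in HFD IP against 14.1 FPKM in CD IP, 1.60 times higher, which ranked 7 from the top. Over all 3791 tests the median log2 IP level in HFD over CD mice was -0.012, and 99.1% of tests lay within 0.5 of 0.

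A test of these levels was added after the data were seen. It took the recovered standard error of each log2 fold as an upper bound for the error of its input or IP level. That holds if the errors of IP and input are independent, which the shared numbering of their libraries leaves unsure. In a two-sided z-test over 5149 tests, centred on their median and with Benjamini-Hochberg adjustment, 0 input levels passed (0.0%), and 5 had an unadjusted p under 0.05. The centred log2 input level in HFD over CD mice was -2.61 for Ttr (95% interval -3.91 to -1.30), -1.92 for Gh (-2.93 to -0.92), -1.70 for Cga (-2.82 to -0.58) and 0.75 for Prl (-0.30 to 1.80). In IP 2 tests passed (0.0388%), and these were Gh, at -2.21 (-3.22 to -1.21), and Cga, at -2.51 (-3.63 to -1.39). Ttr in IP, at -1.76 (-3.06 to -0.46), and Prl in IP, at 0.69 (-0.36 to 1.74), did not pass. The same normal approximation underlies these calls, which lay close to the threshold, and a level that did not pass is not shown to be equal.

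**Figure D3:**
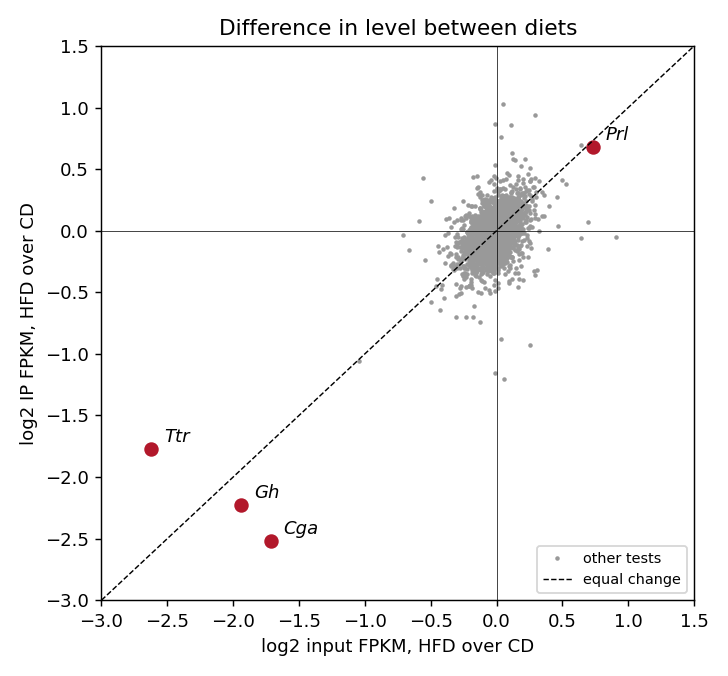
Each point is 1 of 3791 tests, with the log2 input level in HFD over CD mice on the x axis and the log2 IP level in HFD over CD mice on the y axis, and the dashed line marks equal change. Ttr, Gh and Cga lie apart at the lower left, with input values of -2.62, -1.94 and -1.71, and Prl lies at the upper right with 0.73.

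Ratios between genes within 1 group are free of a scale factor common to that group, though not of scaling between its libraries, and were not tested. Gh per Prl was 0.84 in HFD input against 5.35 in CD input, and 0.91 in HFD IP against 6.82 in CD IP. Prl was thus the most abundant of the 4 transcripts in HFD input and Gh in CD input. Prl per Cga was 11.0 in HFD input against 2.01 in CD input, and 2.43 in HFD IP against 0.26 in CD IP. The ratio of Gh to Cga differed much less, with 9.20 in HFD input against 10.8 in CD input, and 2.21 in HFD IP against 1.80 in CD IP. Gh per Ttr was 22.9 in HFD input against 14.3 in CD input, and 16.5 in HFD IP against 22.5 in CD IP, so its order between the diets differed between the fractions.

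Other pituitary genes were checked next, from a list of 18 with Gh, Prl and Cga included. In HFD mice 4 of the 18 were depleted, 1 was enriched and 13 were not listed (median log2 fold -2.72). In CD mice 7 were depleted, 0 were enriched and 11 were not listed (median -3.02). All listed tests had a median log2 fold of 0.39 in HFD mice, with 44.8% depleted, and 0.37 in CD mice, with 46.2% depleted. Fshb, the beta subunit of follicle-stimulating hormone, was listed in CD mice only, with 0.527 FPKM in IP against 6.28 FPKM in input (log2 fold -3.57). Gnrhr, the receptor of gonadotrophs for gonadotropin-releasing hormone, was also listed in CD mice only, at 0.0591 FPKM in IP against 1.16 FPKM in input (log2 fold -4.29). Tbx19, a factor of corticotrophs, was listed in CD mice only (log2 fold -1.20), and Trhr, the receptor of thyrotropin-releasing hormone, in HFD mice only (log2 fold 0.48).

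Pomc, which both corticotrophs and arcuate neurons make, was the only other gene of that list found in both tables. It stood at 11.1 FPKM in HFD IP against 73.1 FPKM in HFD input, and at 13.6 FPKM in CD IP against 86.8 FPKM in CD input. Its log2 input level in HFD over CD mice was -0.25, far smaller in size than those of Gh and Cga. Pou1f1, Tshb and Lhb, more specific markers of pituitary lineages, were listed for neither diet, as were Eya3 and Mtnr1a of the pars tuberalis list, in which Cga was the only listed gene of 4. A gene that is not listed may be unexpressed, untested or not significant.

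The other genes of a choroid plexus list were set beside Ttr. Of its 22 genes, 10 were depleted, 2 enriched and 10 not listed in HFD mice (median log2 fold -2.28). In CD mice 13 were depleted, 2 enriched and 7 not listed (median -2.06). Among all listed tests, 44.8% were depleted in HFD mice (median 0.39) and 46.2% in CD mice (median 0.37). Besides Ttr, 11 tests of the choroid plexus list were listed in both tables. Their log2 input level in HFD over CD mice ran from -0.40 (Msx1) to 0.36 (Sostdc1), with a median of -0.028. Ttr, at -2.62, lay far outside this range.

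Enpp2 (autotaxin), which choroid plexus and oligodendrocytes make, stood at 71.9 FPKM in HFD input against 74.2 FPKM in CD input. The chloride channel protein gene Clic6 stood at 3.37 FPKM in HFD input against 3.11 FPKM in CD input, and the sulfate transporter gene Slc13a4 at 2.95 FPKM in HFD input against 2.91 FPKM in CD input. The homeobox gene Otx2 stood at 2.92 FPKM in HFD input against 2.95 FPKM in CD input. Igf2, made by choroid plexus and meninges and counted with the overlapping gene Gm49394, stood at 44.4 FPKM in HFD input against 41.0 FPKM in CD input. None of these genes shared the lower level of Ttr in HFD mice. Near-equal inputs were the rule, as 99.6% of the 3791 ranked tests lay within 0.5 log2 units of 0. Clic6, Slc13a4 and Otx2 had inputs under the 5 FPKM minimum of that ranking. The part of choroid plexus tissue in the level of Ttr was not tested.

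On tagged ribosomes the choroid plexus list was heterogeneous. Igf2 with Gm49394 kept 7.12% of input in HFD mice and 7.78% in CD mice, against 14.1% in HFD mice and 7.83% in CD mice for Ttr. Calml4 kept 10.0% in HFD mice and 3.51% in CD mice, Slc13a4 14.8% in HFD mice and 14.0% in CD mice, and Msx1 15.3% in HFD mice and 10.7% in CD mice. Enpp2 kept 24.0% in each diet, Igfbp2 17.7% in HFD mice and 23.2% in CD mice, and Clic6 31.1% in HFD mice and 34.0% in CD mice. Otx2 and the calcium-permeable channel gene Trpm3 were shallower, at 45.9% and 51.1% of input in HFD mice and 70.1% and 48.3% in CD mice.

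A few genes of the list were listed once or were enriched. Cldn2 kept 18.7% of input in CD mice, where Kl (73.1%) and Lmx1a (67.9%) were also depleted, and these 3 were not listed in HFD mice. Sostdc1 was enriched at a log2 fold of 0.56 in HFD mice and 0.62 in CD mice, from inputs near 1 FPKM. Rdh5 was enriched as well, but it was counted as 1 locus with Bloc1s1, so its own value is unknown. F5, Aqp1, Folr1, Kcnj13, Kcne2, Slc4a5 and Prlr, the prolactin receptor, were listed for neither diet.

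**Figure D4:**
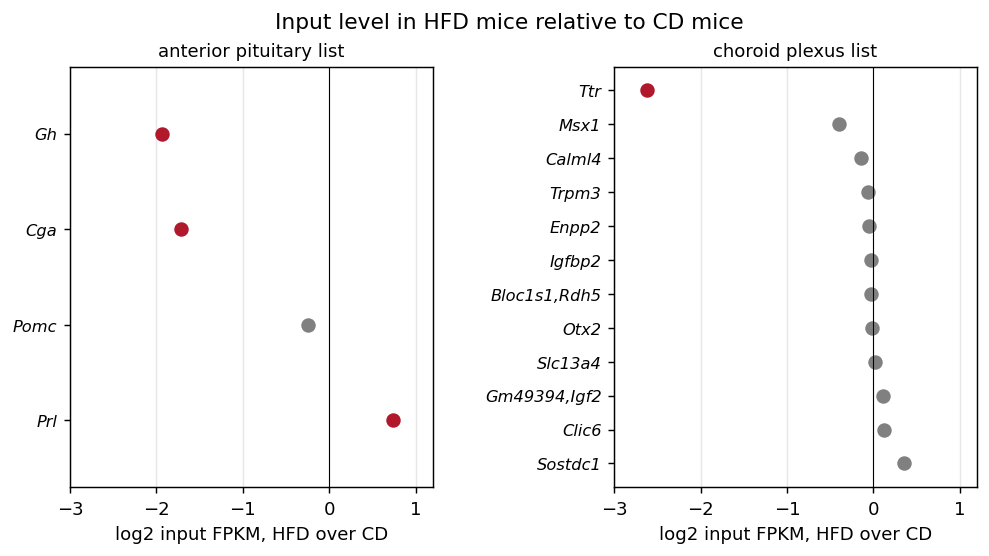
The log2 input level in HFD over CD mice is plotted for each gene of the anterior pituitary list and of the choroid plexus list that was listed in both tables, with Gh, Prl, Cga and Ttr in red. Ttr lies at -2.62, while the other 11 tests of the choroid plexus list lie between -0.40 and 0.36.

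Marker lists of other cell types were compared between the inputs of the diets. The median log2 input level in HFD over CD mice was -0.038 for astrocyte markers, -0.048 for oligodendrocyte markers, 0.039 for microglial markers, 0.084 for ependymal markers and 0.31 for 3 blood genes. None of the listed genes of these 5 lists departed from 0 by more than 0.40, but Crym of the tanycyte list was at -0.59 and Dlx2 of the GABAergic list at 0.57. Their part in the levels of the 4 genes was not tested.

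The hypothalamic side of the hormone axes was given by 21 genes for releasing factors, receptors and signal proteins. In HFD mice 6 were enriched and 3 depleted, with 12 not listed (median log2 fold 0.79). In CD mice 7 were enriched and 5 depleted, with 9 not listed (median 0.60). Among all listed tests, 3613 of 6540 were enriched in HFD mice (median 0.39) and 3597 of 6686 in CD mice (median 0.37). The counts of this list therefore do not set it apart. Gnrh1, the releasing hormone for gonadotrophs, had a log2 fold of 2.44 in HFD mice and 2.81 in CD mice, and Sst, the precursor of somatostatin, which inhibits growth hormone release, had 1.58 in HFD mice and 1.59 in CD mice. The dopamine transporter gene Slc6a3 was lowest, at -3.49 in HFD mice and -3.48 in CD mice. Ghr, the growth hormone receptor, was the next lowest, at -0.59 in HFD mice and -0.98 in CD mice. Gnrh1 and Sst were thus enriched in the same precipitates in which the pituitary hormone transcripts were depleted.

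Genes that handle thyroid hormone and retinol, the cargo of transthyretin, were taken from a list of 16. In HFD mice 1 was enriched, 5 were depleted and 10 were not listed (median log2 fold -2.06). In CD mice 2 were enriched, 5 were depleted and 9 were not listed (median -2.22). Among all listed tests, 44.8% were depleted in HFD mice (median 0.39) and 46.2% in CD mice (median 0.37). The retinoid X receptor gene Rxrb had a log2 fold of 0.62 in HFD mice and 0.51 in CD mice, and the thyroid hormone receptor gene Thra had 0.52 in CD mice. Hr, a corepressor of the thyroid hormone receptor, had -0.71 in HFD mice. Dio2, the deiodinase that activates thyroxine, had -2.74 in HFD mice and -2.64 in CD mice, and Slco1c1, a thyroxine transporter gene, had -3.15 in HFD mice and -2.50 in CD mice. The log2 input level of these genes in HFD over CD mice ran from -0.59 (Crym) to 0.041 (Slco1c1) over 6 tests, again a narrower span than that of Ttr.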

How the data were processed

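Per the labels' protocols, the hypothalamus was frozen, RNA was purified with a micro column kit, cDNA was amplified with Ovation RNASeq V2 and libraries were made with Nextera XT, steps that can shift levels of short or rare transcripts. The submitters' processing notes name HISAT2 2.1.0, StringTie 1.3.4d, Cufflinks 2.2.1, Cuffdiff and GRCm38.p6. The authors deposited 1 table per diet, with an FPKM value for the input and for the IP group, their log2 fold, a test statistic (a signed score), and a p-value and q-value, per the file headers. Scaling is not given in the sources used here. Values per library and depth are unknown, so calls are the authors' q at 0.05.

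Entries that repeated a locus were merged, which left 6540 HFD and 6686 CD tests. The log2 fold recomputed from FPKM differed from the deposited one by at most 1.31e-05. The difference between diets was a z-test on folds (SciPy 1.17.1) with Benjamini-Hochberg adjustment. It covered 5149 tests listed for both diets with at least 1 FPKM in either fraction. Its code was run on simulated data whose noise was drawn from the same standard errors. That run cannot show whether these errors fit the data. Being a normal approximation on pooled groups, the z-test measures only what the deposited statistics hold. Whether its p-values cover the spread between libraries is unknown, and that spread may be technical. Levels between diets were ranked over 3791 tests listed for both diets with a mean input of at least 5 FPKM. As an addition after the data were seen, levels were tested by the same z-test. The standard errors of the folds served as assumed upper bounds. Columns of values for single samples that went unused numbered 0.

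The 4 genes, the lists and the tests were chosen with earlier results of these data known. Named were the 4 genes, every listed gene of the pituitary and choroid plexus lists, the 2 highest and 2 lowest of the hormone axis and the thyroid hormone and retinol lists, and 5 nearest genes each. Comparison lists entered as counts and medians, with a few of their genes named. Alternatives were a q of 0.01, centred folds, a pseudocount of 1, another standard error and other FPKM minimums.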

Additional observations from a re-analysis of the deposited data

How the results depend on the processing

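All 4 genes stayed depleted in both diets with centred log2 folds and with a pseudocount of 1. At a q of 0.01, 4 passed in HFD mice and 3 in CD mice, where Cga (log2 fold -0.44, q = 0.0378) was lost. The difference between diets gave 0 calls without centring, with standard errors from the p-values, without an FPKM minimum and at 5 FPKM, a test too wide to speak for stability. The added test of levels gave 0 calls in input and 2 in IP at either minimum. Counts of depleted genes in the pituitary, choroid plexus, hormone axis and thyroid hormone lists stayed within 1.5 times. The minimum for input levels was varied after seeing the data. Inputs at least 2 times lower in HFD mice numbered 10 at a minimum of 1 FPKM, against 4 at 5, 10 or 20 FPKM. Ttr, Gh and Cga were lowest at each minimum, and Prl ranked 9 from the top at 1 FPKM, 2 at 5 and 10 FPKM and 1 at 20 FPKM. No paired analysis was possible because each group has a single pooled value, and leaving out a replicate was not run for the same reason. Without depth, no floor could be set for low values such as Ttr in HFD IP.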

Other observations

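Of the 3791 tests ranked by input level, 1 other was at least 2 times lower in HFD mice. Slc6a3, the dopamine transporter gene of the hormone axis list, stood at 18.0 FPKM in HFD input against 37.1 FPKM in CD input, and at 1.61 FPKM in HFD IP against 3.34 FPKM in CD IP. Its IP level was 8.89% of its input level in HFD mice and 8.98% in CD mice. At the other end of the ranking, Rdh13, a retinol dehydrogenase gene, stood at 17.8 FPKM in HFD input against 9.45 FPKM in CD input, while its IP level was 6.04 FPKM in HFD mice against 6.26 FPKM in CD mice. Ppp1r1b, a marker of striatal neurons, stood at 33.9 FPKM in HFD input against 21.0 FPKM in CD input, with 4.97 FPKM in HFD IP against 4.74 FPKM in CD IP. These 3 genes were chosen after their values were seen, and none of them passed the z-test of levels between diets in input or IP.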
